A study of Homo sapiens with 16 samples.

Results

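H3K27ac, an acetyl mark on histone H3 that active promoters and enhancers carry, was compared between USP18KO and WT THP-1 cells that had received no interferon. THP-1 cells come from a human monocytic leukemia. The comparison used 4 of the 16 libraries of the series, 2 from USP18KO cells and 2 from WT cells, and every region with enough tags was taken. Of 151654 regions of 1000 bp in the table, each placed at a merged ATAC-seq peak, 123276 were tested. A region was called when edgeR's quasi-likelihood test gave a Benjamini-Hochberg adjusted p under 0.05 and the difference was over 2-fold, and 20276 regions were called. Of the tested regions, 6985 (5.67%) were higher in USP18KO cells and 13291 (10.8%) were lower.

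USP18KO cells were made with CRISPR and are clones raised from single sorted cells. WT cells are labelled as carrying Cas9 only, while the treatment protocol names a control guide. Both were grown in RPMI with fetal bovine serum and left untreated, and the 2 libraries of a group are cultures of 1 cell line, so the p-values measure only the spread between these cultures, which may be technical. Loss of USP18 and the history of a clone cannot be told apart here. The 4 libraries from cells given IFNα at 1000 U/ml for 6 h entered the same fit to share its estimate of spread. The untreated libraries held between 9167708.5 and 11848426.5 tags in regions, and 31.8% of the windows in the table overlapped another window, so neighbouring regions can share tags. In such bulk samples, more cells carrying the mark and more of the mark per cell cannot be told apart. Regions carry the name of the gene with the nearest TSS, which does not show that a region acts on that gene.

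USP18 removes the ubiquitin-like protein ISG15 from its targets and, apart from that activity, binds the interferon receptor subunit IFNAR2 and restrains JAK-STAT signaling. Without it, cells respond to type I interferon more strongly and for longer. The integrated stress response, which appears among the gene groups below, is a separate program in which kinases sensing amino acid shortage, viral RNA or misfolded protein phosphorylate the translation factor eIF2α, and the transcription factor ATF4 then acts with C/EBP family partners at C/EBP-ATF response elements of amino acid transport, amino acid synthesis and tRNA synthetase genes.

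The window at the USP18 TSS had 8.09 and 8.35 CPM (the tags of a window relative to the TMM-scaled tag total of its library) in USP18KO replicates 1 and 2 and 7.74 and 7.52 CPM in WT replicates 1 and 2. The log2 difference was 0.11 (SE 0.18, edgeR adjusted p = 0.71). The mark at this TSS is no check of the deletion itself. Of 14 monocyte marker genes all 14 had a tested promoter window, 11 of them above 10 CPM, and their summed level was 464 and 474 CPM in USP18KO cells against 293 and 295 CPM in WT cells. Of these, 2 windows were called higher, at TYROBP and FCER1G, and 0 lower. Most of the difference in the sums came from FCER1G (89.7 and 92.9 CPM against 30.3 and 28.4 CPM), TYROBP (60.9 and 60.1 against 21.7 and 22.8 CPM) and SPI1 (97.7 and 108 against 64.9 and 67.4 CPM). CD68 (-0.30), FCGR1A (-0.49), CSF1R (-0.24), ITGAM (-0.09) and CSF3R (-0.08) had log2 differences below 0 and the other markers above 0. Defining genes of T cells (CD3D, CD3E, CD3G), B cells (MS4A1), red cells (HBB, KLF1), epithelium (EPCAM, KRT18, KRT19) and fibroblasts (COL1A2, DCN, LUM) had no promoter window among the tested regions. Other members of these lists had one, 5 of 8 for T cells, 4 of 6 for B cells, 2 of 8 for red cells and megakaryocytes, and 2 of 5 each for epithelium and fibroblasts, and some were called. CD79B (log2 difference 1.19), PAX5 (1.09) and EPOR (1.01) were higher, and EBF1 (-1.57), CD2 (-1.76) and KRT8 (-1.48) lower, at no more than 9.88 CPM in any library except EPOR, which had 20.9 and 22.97 CPM in USP18KO cells and 10.9 and 10.8 CPM in WT cells. With each 10 Mb stretch of a chromosome centred on its own median difference, EPOR (0.75) and KRT8 (-0.96) lost the call and the others kept it. The part of other cell types in the results was not tested. The T cell list as a whole summed to 39.8 and 40.6 CPM in USP18KO cells and 17.7 and 17.9 CPM in WT cells. The window at CD4, a gene that monocytes also express, made up most of the USP18KO sums, with 26.8 and 29.5 CPM against 5.09 and 3.31 CPM.

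A sequence that was more frequent in gained than in lost regions, though absent from the centre of most of them, is shown first. The letters TGATGNAAT, read on both strands, are the core of the C/EBP-ATF response element that ATF4 binds, abbreviated CARE. Distal regions, over 3000 bp from a TSS, held a CARE within the central 200 bp in 2.79% of 94429 cases. Among the 4884 distal regions called higher (5.17% of distal regions) the share was 10.1%, or 495 regions, and among the 12008 called lower (12.7%) it was 1.75%. With the whole 1000 bp window searched in place of the centre, the shares were 6.77% of all, 16.0% of higher and 5.47% of lower distal regions. Read the other way, of the 2634 distal regions with a central CARE 18.8% were called higher and 7.97% lower. At promoters, within 3000 bp of a TSS, 48 of the 2101 windows called higher (7.28% of promoter windows) held a central CARE, or 2.28%, against 0.738% of all 28847 promoter windows and 0.857% of the 1283 called lower (4.45%). The matches were most frequent where the ATAC-seq peak was centred, though others lay further out in the window. Among gained distal regions there were 3.62 matches per 100 regions in the 50 bp before the centre and 4.03 in the 50 bp after it, against 0.933 and 0.981 over all distal regions. Of 2920 CARE matches in the central 200 bp of tested regions, 15 overlapped a C/EBP match and 5 an AP-1 match as these are defined below. A match describes letters in a window and is no proof of a bound site.

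**Figure D1:**
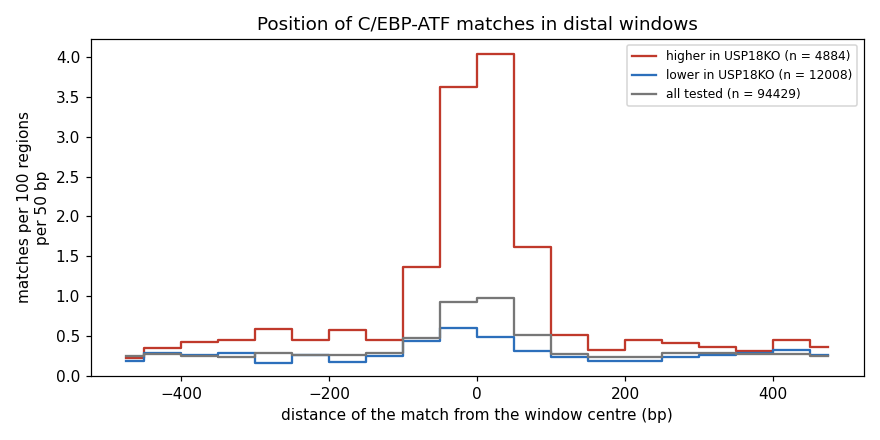
Matches to the CARE letters per 100 distal regions in steps of 50 bp (y axis) by distance from the window centre in bp (x axis), for regions higher in USP18KO cells, lower in USP18KO cells and all tested. The line of gained regions peaks at 4.03 matches per 100 regions just beside the centre, where all tested regions reach 0.981.

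For 5 promoter windows of stress response genes and 4 distal regions the stretch around the match is given, chosen after their values were seen as windows with a match near the centre and a rise in USP18KO cells. Capitals mark the CARE, which lies on the plus strand for SARS, MTHFD2, TNC and LINC01482 and on the minus strand for the others, and all stretches read 5′ to 3′ on the plus strand of hg38. The SARS stretch lies at chr1:109214957-109215045, MTHFD2 at chr2:74199173-74199261, XBP1 at chr22:28799326-28799414, STC2 at chr5:173326848-173326936 and WARS at chr14:100375595-100375623, which overlaps a UTR and is shortened. The distal stretches lie at chr9:115035933-115036021 in an intron of TNC, at chr19:30558945-30559033 in ZNF536, at chr17:68698170-68698258 near LINC01482 and at chr1:167564710-167564798 upstream of CREG1.
SARS: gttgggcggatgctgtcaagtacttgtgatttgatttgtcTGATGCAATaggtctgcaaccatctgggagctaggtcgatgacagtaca
MTHFD2: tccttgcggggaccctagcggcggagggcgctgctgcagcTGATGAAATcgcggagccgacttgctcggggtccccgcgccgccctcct
XBP1: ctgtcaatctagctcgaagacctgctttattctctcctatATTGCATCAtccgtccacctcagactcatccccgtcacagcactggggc
STC2: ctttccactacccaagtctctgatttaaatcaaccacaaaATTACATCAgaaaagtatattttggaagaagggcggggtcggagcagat
WARS: ttagctggtcATTGCATCAgccacccctc
TNC: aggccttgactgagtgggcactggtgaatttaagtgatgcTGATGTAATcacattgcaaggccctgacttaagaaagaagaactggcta
ZNF536: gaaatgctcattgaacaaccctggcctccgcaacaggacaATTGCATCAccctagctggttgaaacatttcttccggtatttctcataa
LINC01482: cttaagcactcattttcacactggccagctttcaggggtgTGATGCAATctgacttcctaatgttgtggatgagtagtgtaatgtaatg
CREG1: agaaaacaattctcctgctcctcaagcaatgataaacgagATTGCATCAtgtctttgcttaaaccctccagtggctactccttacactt

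The distal regions that carry these stretches were picked as the largest gains with a central match, so their size is a description. The TNC intron region, 82275 bp into the gene of the matrix protein tenascin C, had 31.6 and 29.4 CPM in USP18KO cells and 1.22 and 2.15 CPM in WT cells, a log2 difference of 4.15 (SE 0.20, edgeR adjusted p = 2.7e-31). The CREG1 region, at -11000 bp from the TSS of a secreted glycoprotein gene, had 38.3 and 38.9 CPM against 4.38 and 4.21 CPM, or 3.17 on the log2 scale (SE 0.16, edgeR adjusted p = 1.5e-30). At LINC01482 the values were 15.1 and 13.8 CPM against 1.02 and 0.985 CPM. In ZNF536 they were 9.98 and 11.96 CPM against 0.509 and 0.269 CPM. Groups that do not overlap were a condition for every region named by rule in what follows, and 63.5% of all tested regions met it. Each of these 4 regions was also higher in USP18KO than in WT cells with IFN, by 4.08, 2.97, 4.60 and 3.21 on the log2 scale.

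At promoters of genes of the integrated stress response and amino acid metabolism every window called under the TMM scaling was a gain, and most windows were not called. Of 117 promoter windows of this list, 48 (41.0%) were called higher and 0 lower, set against 7.28% and 4.45% of all promoter windows. The median log2 difference was 0.90, against 0.30 over all promoter windows, 110 of the 117 lay above 0, and 28 of the 59 genes with a promoter window had a called one. With proximal regions scaled and tested alone, which sets the promoter median to 0, 25 windows were higher, 1 was lower and the list median was 0.59. Of all 28847 promoter windows 884 were then higher and 2309 lower. Distal regions within 100000 bp of these genes had 18 of 243 (7.41%) higher and 26 (10.7%) lower, where 5.23% and 11.8% of all distal regions in that range were called. Of the 117 windows 12 held a central CARE, and 7 of these were among the 48 called higher.

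The largest promoter rises of the list were at a secreted hormone, a stress cytokine, a tRNA synthetase and an amino acid enzyme. STC2, which encodes the glycoprotein hormone stanniocalcin 2, had 6.20 and 6.45 CPM in USP18KO cells and 0.917 and 1.07 CPM in WT cells, a log2 difference of 2.65 (SE 0.31, edgeR adjusted p = 1.8e-11). GDF15, a circulating stress cytokine of the TGF-β family, had 9.47 and 9.11 CPM against 0.917 and 2.24 CPM (2.52, SE 0.27, edgeR adjusted p = 4.5e-13). SARS, seryl-tRNA synthetase, had 28.0 and 25.1 CPM against 5.81 and 4.03 CPM (2.44, SE 0.17, edgeR adjusted p = 4.2e-22). In all 3 genes both USP18KO libraries lay far above both WT libraries. ASNS, which makes asparagine, had 19.5 and 21.4 CPM against 5.40 and 3.40 CPM (2.23, SE 0.18, edgeR adjusted p = 2.9e-18).

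Further members, looked up after their values were seen, are given by role. TRIB3, a pseudokinase induced by ATF4, had 107 and 123 CPM in USP18KO cells and 31.7 and 28.9 CPM in WT cells (1.93). SESN2, a leucine sensor upstream of mTORC1, rose by 2.11, DDIT4, an mTORC1 inhibitor, by 1.91, and CHAC1, which degrades glutathione, by 1.62 on the log2 scale. The glutamine carrier SLC1A5 rose by 1.80, the tryptophanyl-tRNA synthetase gene WARS by 1.55 and the mitochondrial folate enzyme MTHFD2 by 1.51. XBP1, a transcription factor of the unfolded protein response, had 50.5 and 53.1 CPM against 13.3 and 13.8 CPM, also a difference of 1.93. The partner factor CEBPG rose by 1.01 and the stress factor ATF3 by 1.13. ATF4 itself stayed below the fold threshold, with 94.5 and 103 CPM against 65.0 and 68.0 CPM at its TSS (0.57, SE 0.09, edgeR adjusted p = 9.5e-08). DDIT3, which encodes CHOP, had 59.8 and 70.5 CPM against 59.6 and 56.4 CPM (0.17, SE 0.10, edgeR adjusted p = 0.18). It lies on chromosome 12 between 50 and 60 Mb, a stretch with a median of -0.52 where 197 of 831 regions were lower. PSAT1 in serine synthesis (0.98) and the chaperone gene HSPA5 (0.92) were also short of a call. Away from promoters, a region in an intron of IL4I1 and NUP62, at -5154 bp from the ATF5 TSS, had 23.8 and 25.6 CPM against 4.48 and 5.91 CPM (2.24), and a region at -6903 bp from the TSS of the transaminase gene GPT2 fell, with 1.29 and 1.90 CPM against 8.46 and 9.40 CPM (log2 difference -2.49). ATF6, the membrane-bound sensor of unfolded protein and no member of the list, was among the 10 largest promoter rises of all, with 41.3 and 46.2 CPM against 4.08 and 6.09 CPM in a window at -1125 bp from its TSS (3.09, SE 0.15, edgeR adjusted p = 5.1e-31). The ATF6 window lies on chromosome 1 between 160 and 170 Mb, a stretch whose regions had a median of 0.51, and with every stretch centred on its own median it was higher by 2.58.

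**Figure D2:**
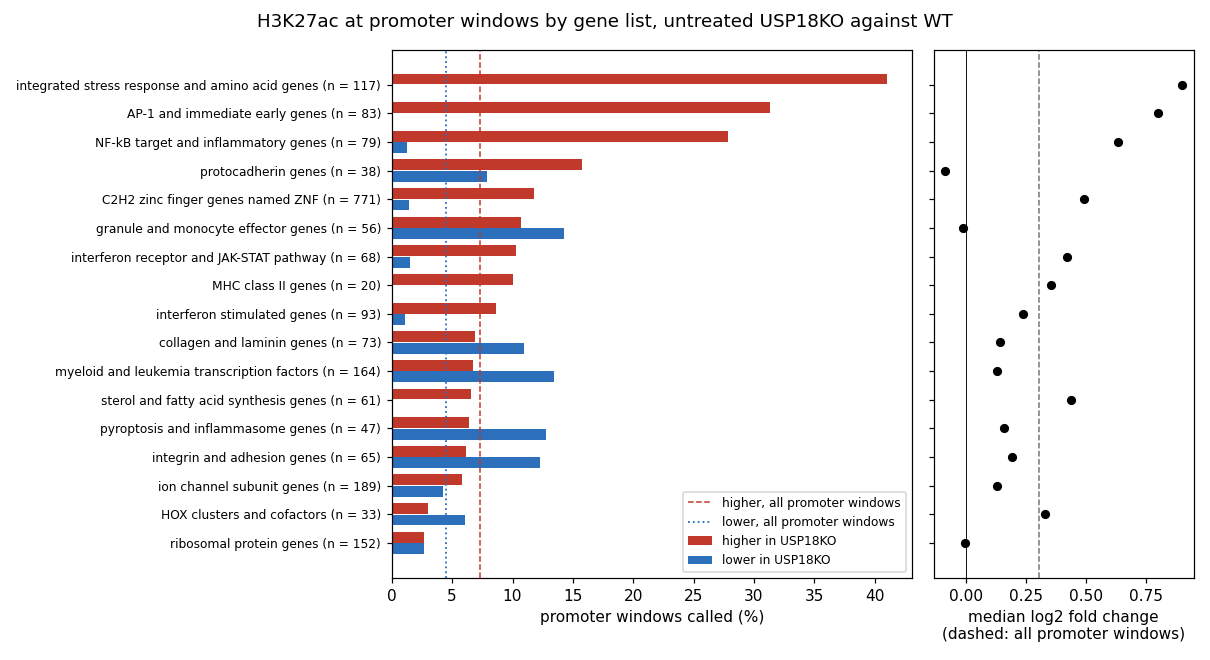
Left, share of tested promoter windows called higher or lower in untreated USP18KO cells (x axis, percent) for each gene list, with dashed and dotted lines at the shares over all promoter windows (7.28% higher, 4.45% lower). Right, the median log2 difference of each list, with a dashed line at the median of all promoter windows (0.30). Stress response, AP-1 and NF-kB lists stand to the right in both panels.

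Immediate early genes encode AP-1 and related factors and respond within minutes to growth factors and stress. Of their 83 promoter windows 26 (31.3%), at 14 of 33 genes, were higher, 0 were lower, the median was 0.80 and 76 windows lay above 0. FOSB, a partner of JUN proteins in AP-1, had 8.95 and 7.78 CPM in USP18KO cells and 0.917 and 1.79 CPM in WT cells (2.59, SE 0.28, edgeR adjusted p = 5.8e-13). JUNB rose by 1.46, KLF10 by 1.57 and EGR1 by 1.12, while FOS (0.76) and JUN (0.61) were short of a call. A region 16503 bp from BATF3, a dendritic cell factor, had 65.2 and 59.9 CPM against 12.7 and 12.9 CPM (2.29), and a region 70498 bp from KLF6 fell, with 0.947 and 1.04 CPM against 5.81 and 4.83 CPM (log2 difference -2.40). Scaled over proximal regions alone, 10 windows of the list were higher, 0 were lower and the list median was 0.49. Of all 28847 promoter windows 884 were higher and 2309 lower under that scaling.

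NF-kB target genes were called higher at 22 of 79 promoter windows (27.8%) and lower at 1 (1.27%), with a median of 0.63. Among all promoter windows 7.28% were higher and 4.45% lower. Under proximal scaling 14 windows of the list were higher, 4 lower and the median was 0.33. All 28847 promoter windows then held 884 higher and 2309 lower ones. Of the distal regions of this list within 100000 bp, 27 of 221 (12.2%) were called higher and 22 (9.95%) lower. Among all distal regions in that range 5.23% were higher and 11.8% lower. ICAM1, the adhesion ligand of leukocyte integrins, had 6.28 and 7.97 CPM in USP18KO cells and 1.32 and 1.97 CPM in WT cells (2.08, SE 0.27, edgeR adjusted p = 5.7e-10). The monocyte chemokine CCL2 had 4.22 and 4.08 CPM against 1.02 and 1.07 CPM (1.97, SE 0.33, edgeR adjusted p = 5.8e-07). NFKB2, the precursor subunit of the noncanonical pathway, had 44.7 and 44.5 CPM against 16.9 and 11.5 CPM (1.66, SE 0.13, edgeR adjusted p = 1.0e-19), and BIRC3, an inhibitor of apoptosis and of that pathway, had 3.79 and 4.75 CPM against 0.408 and 1.88 CPM (1.83). Both subunits that form the noncanonical dimer thus had higher values, since RELB showed 34.3 and 25.3 CPM against 10.9 and 9.49 CPM at its promoter (1.55) and 8.69 and 10.1 CPM against 0.509 and 0.895 CPM in an intron 15668 bp from the TSS (3.69, SE 0.31, edgeR adjusted p = 1.1e-17). An intron of CD83, a maturation marker of antigen-presenting cells, had 9.30 and 8.83 CPM against 0.917 and 0.985 CPM (3.23). Looked up after their values were seen, TNF rose by 1.66, CCL3 by 1.52 and IL6, at 1.98 and 1.80 CPM against 0.204 and 0.716 CPM, by 1.97, whereas NFKBIA (0.87), CXCL8 (-0.02) and IL1B (-0.22) were not called and NFKBIZ had 1 window that fell, 2061 bp from the TSS (log2 difference -1.07), and 1 that rose, 276 bp from it (1.02). Letters of an NF-kB site, GGANTTTCC on either strand, were in the centre of 1.68% of gained, 0.700% of lost and 0.885% of all distal regions, and in 1.76%, 0.624% and 0.939% of promoter windows in the same order. The ICAM1 window held these letters on the minus strand, in the stretch chr19:10270894-10270982, shown because this gene led the list. This match lies just outside the central 200 bp, so it is not among the shares above.
ICAM1: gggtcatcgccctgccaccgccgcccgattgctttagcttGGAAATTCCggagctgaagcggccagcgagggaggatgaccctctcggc

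Interferon-stimulated genes (ISGs), the genes that USP18 restrains when interferon is present, were called in few cases in untreated cells. Of 93 promoter windows 8 (8.60%) were called higher and 1 lower, where 7.28% and 4.45% of all promoter windows were, and the median of 0.24 lay below the promoter median of 0.30. The windows called higher belonged to 6 of 46 genes. HERC6, a ubiquitin-like ligase, had 15.0 and 15.7 CPM in USP18KO cells and 4.89 and 6.09 CPM in WT cells (1.47, SE 0.16, edgeR adjusted p = 2.4e-12). IFIH1, which encodes the RNA sensor MDA5, had 7.83 and 9.68 CPM against 3.87 and 2.95 CPM (1.36, SE 0.21, edgeR adjusted p = 7.0e-08). OAS3, an RNA-activated synthetase, had 2.67 and 3.32 CPM against 0.611 and 1.52 CPM (1.44, SE 0.35, edgeR adjusted p = 5.2e-04), and this call was lost without WT replicate 1. IFITM1, a membrane protein that blocks viral entry, went the other way, with 2.67 and 1.90 CPM against 8.46 and 6.98 CPM (log2 difference -1.73, SE 0.22, edgeR adjusted p = 4.1e-10). ISG15 had 7.92 and 9.21 CPM against 6.32 and 8.41 CPM, groups that overlap (0.20, edgeR adjusted p = 0.41). With IFN, 74 of the 93 windows were higher in USP18KO than in WT cells and 1 was lower, where 14.6% and 5.82% of all promoter windows, and 11.3% and 13.4% of all regions, were called higher and lower in that comparison.

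In the interferon receptor and JAK-STAT list 7 of 68 promoter windows (10.3%) were higher and 1 (1.47%) was lower, near the 7.28% and below the 4.45% over all promoter windows, and the median was 0.42. SOCS2, a feedback inhibitor of cytokine signaling, had 6.46 and 8.73 CPM against 1.32 and 1.61 CPM (2.35, SE 0.28, edgeR adjusted p = 5.1e-11). The phosphatase gene PTPN2, which acts on JAK and STAT proteins, had 39.5 and 44.3 CPM against 19.6 and 20.2 CPM (1.07), a call lost when scaled by the sum of counts (0.93) or over proximal regions alone (0.76), and without USP18KO replicate 2 (0.99). JAK3, the kinase of the common γ chain receptors, had 1.55 and 1.71 CPM against 10.2 and 9.40 CPM (log2 difference -2.58, SE 0.26, edgeR adjusted p = 2.5e-14). Distal regions fell at -98771 bp from PIAS1 (log2 difference -2.41) and at -29539 bp from JAK1 (-1.92), both in intergenic sequence.

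Transcription factor genes of myeloid cells and leukemia held more losses than gains. Of 164 promoter windows 22 (13.4%) were lower and 11 higher, where 4.45% of all promoter windows were lower, and of 472 distal regions 81 (17.2%) were lower and 15 higher, where 11.8% were lower in that range. With every 10 Mb stretch centred on its own median, 56 of the 472 distal regions were lower and 17 higher. All 79451 distal regions in range then held 8244 lower and 3892 higher ones, so much of the distal excess went with the stretches. The promoter windows of the list then had 22 lower and 10 higher. The median of the promoter windows was 0.13, and -0.01 when scaled by the sum of counts. ID1 and ID3, which bind E proteins and keep them from DNA, were the largest promoter falls of the list. ID1 had 2.15 and 2.18 CPM in USP18KO cells and 25.3 and 23.99 CPM in WT cells (log2 difference -3.50, SE 0.20, edgeR adjusted p = 1.3e-27), and a region at -9009 bp had 3.27 and 2.28 CPM against 34.8 and 31.4 CPM (-3.56, SE 0.18). ID3 had 0.516 and 0.475 CPM against 4.08 and 3.04 CPM (-2.80, SE 0.41, edgeR adjusted p = 2.4e-08). TCF4, an E protein of plasmacytoid dendritic cells, had 1.12 and 0.854 CPM against 4.99 and 6.98 CPM (-2.59, SE 0.32, edgeR adjusted p = 1.5e-10), and BCL11A, a repressor in lymphoid and red cell development, had 1.03 and 1.71 CPM against 7.03 and 6.89 CPM (-2.35, SE 0.29). At all these genes the WT libraries were the higher ones. Looked up after the values were seen, ZEB1 (log2 difference -1.92) and NFE2 (-1.59) also fell, and CEBPB rose by 1.25, TAL1 by 1.55 and RUNX3 by 1.12 on the log2 scale. The myeloid master regulators SPI1 (0.57), CEBPA (0.55) and MYB (0.31) were not called at their TSS.

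Granule and monocyte effector genes were mixed at promoters, 6 of 56 windows (10.7%) higher and 8 (14.3%) lower with a median of -0.01, where 7.28% and 4.45% of all promoter windows were, and distal regions had 27 of 113 (23.9%) lower and 9 (7.96%) higher, where 11.8% and 5.23% of those in range were. With every 10 Mb stretch centred on its own median, 6 promoter windows were higher and 5 lower, and 8 distal regions were higher and 24 lower. The stretch from 150 to 160 Mb of chromosome 1, which holds MNDA, had a median of -0.31 with 190 of 1082 regions lower. MPO, the peroxidase of azurophilic granules, had 16.2 and 18.1 CPM in USP18KO cells and 48.2 and 55.9 CPM in WT cells (log2 difference -1.61, SE 0.12, edgeR adjusted p = 1.7e-20). MNDA, a nuclear protein of myeloid cells, had 10.4 and 9.78 CPM against 45.5 and 39.2 CPM (-2.06, SE 0.13, edgeR adjusted p = 9.6e-24), and at -12235 bp from the TSS 1.81 and 1.99 CPM against 20.6 and 18.3 CPM (-3.35). The calprotectin subunit S100A9 had 4.30 and 3.99 CPM against 13.6 and 12.3 CPM (-1.63), and its partner S100A8, looked up after its value was seen, fell by 1.41. In the other direction NCF4, a subunit of the phagocyte NADPH oxidase, had 56.7 and 55.1 CPM against 15.5 and 16.1 CPM (1.82, SE 0.12, edgeR adjusted p = 4.2e-24). The secreted enzymes LYZ (0.21) and ELANE (-0.07) were not called. In the MHC class II list 2 of 20 promoter windows, a share near that over all, and 7 of 49 distal regions (14.3%) were higher and 0 lower in either set, with HLA-DRA at 4.99 and 3.89 CPM against 1.32 and 1.25 CPM (1.78) and a region at -14242 bp from HLA-DRB1 at 3.79 and 3.04 CPM against 0.611 and 0.895 CPM (2.15). The class II genes have close paralogs, so their tags may be shared, and without WT replicate 1 only 1 promoter window was called. Under the filter of at least 30 counts the median of the class II promoter windows turned from 0.35 to -0.39, with fewer windows left.

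**Figure D3:**
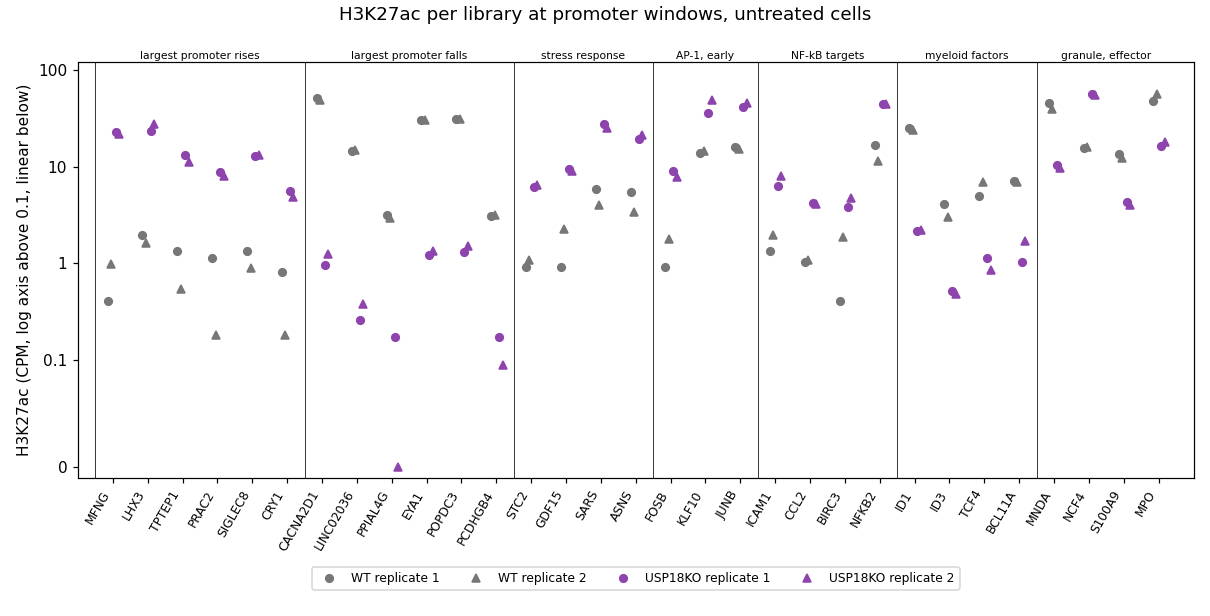
H3K27ac in CPM (y axis, logarithmic above 0.1 and linear below) at the promoter windows of named genes, with 1 point per library, WT in grey and USP18KO in purple, circles for replicate 1 and triangles for replicate 2. The points of the 2 groups are apart at each gene, which the rule for naming genes required, as at MFNG with 23.1 and 22.02 CPM against 0.408 and 0.985 CPM.

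The largest differences of all were at genes of other tissues as well as of blood. At promoters MFNG, a glycosyltransferase that modifies Notch receptors, rose most, by 4.96 on the log2 scale or 31.1-fold (SE 0.26, edgeR adjusted p = 1.6e-29). LHX3, a homeobox gene of pituitary and motor neurons, had 23.7 and 27.9 CPM in USP18KO cells and 1.94 and 1.61 CPM in WT cells (3.86, SE 0.22, edgeR adjusted p = 3.2e-27), SIGLEC8, a lectin of eosinophils and mast cells, 12.8 and 13.1 CPM against 1.32 and 0.895 CPM (3.55), and the circadian repressor gene CRY1 5.59 and 4.84 CPM against 0.815 and 0.179 CPM (3.42). HES5, a Notch target, was at 3.01 and 3.70 CPM against 0.204 and 0.448 CPM (3.28). TPTEP1 (3.74), PRAC2 (3.73), LOC401312 (3.19) and LOC102724908 (3.16) completed the 10 largest promoter rises. The largest promoter fall was at the calcium channel subunit gene CACNA2D1, where 51.4 and 48.7 CPM in WT cells stood against 0.947 and 1.23 CPM in USP18KO cells (log2 difference -5.51, SE 0.20, edgeR adjusted p = 1.9e-40). EYA1, a phosphatase and coactivator of organ development, had 1.20 and 1.33 CPM against 30.6 and 30.6 CPM (-4.58), and POPDC3, a membrane protein of muscle, 1.29 and 1.52 CPM against 31.4 and 31.4 CPM (-4.48). ZKSCAN4 (-4.40), NHLRC3 (-4.30), HS3ST3A1 (-4.23) and the noncoding genes LINC02036 (-5.49) and LINC02037 (-4.25) also fell. Several of these folds rest on few counts in the lower group, 2 and 5 for HES5, 8 and 2 for CRY1, 11 and 2 for PRAC2, 3 and 4 for LINC02036 and 2 and 5 for HS3ST3A1, and are imprecise. PPIAL4G and PCDHGB4 fell as well, but they belong to families of near-identical copies or clusters, so the assignment of their tags is uncertain.

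Among distal regions the strongest loss in tags was at chr5:1313396-1314396, an intergenic window 3356 bp from CLPTM1L that is named after MIR4457. It had 6.46 and 5.88 CPM in USP18KO cells and 159 and 165 CPM in WT cells (log2 difference -4.71, SE 0.12, edgeR adjusted p = 5.4e-52). An intron of PLXNA4, a semaphorin receptor gene, had a log2 difference of -5.17 (window named LOC101928807), an intron of KIRREL3 -5.14 (window named ST3GAL4), an intron of MAEL -5.09 and the window at PDE9A, a cyclic GMP phosphodiesterase gene, -5.09. An intron of AGBL4 (window named SPATA6) stood at -4.82 and an intron of LINC01934 (window named MIR4437), 81792 bp from ITGA4, at -4.71. The tags at RNVU1-11, which also fell, are uncertain because the gene has near-identical copies. Rises included an intergenic region at -5958 bp from SMARCD2, a chromatin remodeling subunit, with 19.7 and 23.3 CPM against 0.713 and 0.716 CPM (4.89, SE 0.26, edgeR adjusted p = 3.0e-29), an exon of ZNF536 with 14.6 and 15.0 CPM against 0.611 and 0.358 CPM (4.92), and a region near LINC02024 with 15.9 and 14.05 CPM against 1.12 and 0.537 CPM (4.19). At LINC00910 the level was 17.4 and 14.4 CPM against 0.306 and 0.0895 CPM, which in WT cells is 3 and 1 counts, so no fold is given. LINC02425, LINC01645 and LOC101929563 had like patterns, with 1 to 4 counts in each WT library.

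Gains and losses differed in where they lay. Within 1000 bp of a TSS 7.27% of 22660 regions were higher and 3.43% lower, with a median log2 difference of 0.34 (TMM scaling over all regions). From 1000 to 3000 bp the shares were 7.34% and 8.16%, from 3000 to 10000 bp 6.19% and 9.81%, from 10000 to 30000 bp 5.28% and 11.5%, and from 30000 to 100000 bp 4.63% and 13.3%. Over 100000 bp from a TSS 4.87% of 14978 regions were higher, 17.4% were lower and the median was -0.29. The share of losses thus rose with distance in each step, while the share of gains was highest under 3000 bp. By annotation, introns held 3030 gained and 5650 lost regions and intergenic sequence 2234 and 6495, while promoter-TSS windows held 1191 and 543. Regions at LINE elements, a class of retrotransposons, were lower in 15.3% of 11419 cases and higher in 4.53%, and regions at CpG islands lower in 4.34% of 4353 and higher in 8.29%. Lost promoter windows were poorer in CpG, with a median of 5 CpG and 55.5% GC in the central 200 bp against 16 CpG and 65% GC over all promoter windows. The split by direction depends on the scaling. Scaled by the sum of counts, which moved the median of all regions from -0.02 to -0.16, 4974 regions were higher and 16879 lower, and 22.8% of the called regions were higher in place of 34.4%. At promoters this gave 1419 higher and 1735 lower windows, and with proximal regions scaled alone 884 were higher and 2309 lower, so that the preponderance of promoter gains turned to one of losses. Distal regions scaled alone gave 6877 higher and 9071 lower.

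**Figure D4:**
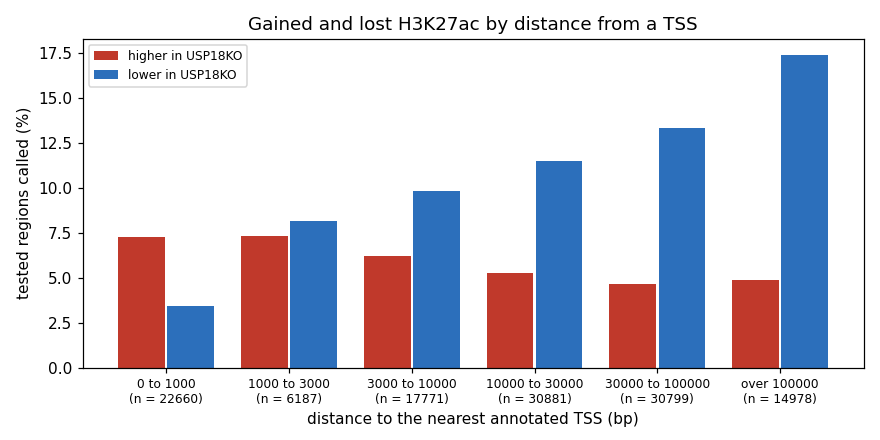
Share of tested regions called higher (red) or lower (blue) in untreated USP18KO cells (y axis, percent, TMM scaling over all regions) by distance to the nearest annotated TSS in bp (x axis, with the number tested). The share called lower climbs from 3.43% within 1000 bp to 17.4% over 100000 bp.

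Letters of other factors were compared in the same way, with both strands of the central 200 bp searched. C/EBP letters, TTGCNNAA, were in 27.5% of lost, 15.6% of gained and 19.3% of all distal regions, and in 16.5%, 6.14% and 7.71% of promoter windows. RUNX letters, TGTGGTT, were in 11.2%, 7.84% and 8.22% of distal regions in that order. Of the 18189 distal regions with C/EBP letters 18.1% were lower, and of the 7760 with RUNX letters 17.4%, where 12.7% of all distal regions were. AP-1 letters, TGANTCA, were in 16.7% of gained, 15.0% of lost and 15.4% of all distal regions, and those of the interferon response element, TTCNNTTTC, in 10.1%, 11.8% and 11.4%. In lost promoter windows AP-1 letters were in 9.82%, interferon response element letters in 8.18% and RUNX letters in 6.47%. The shares over all promoter windows were 5.92%, 5.08% and 3.31%, and in gained ones 6.71%, 4.76% and 2.95%. The promoter excess in lost windows was thus not particular to C/EBP letters. Lost promoter windows were also poorer in GC, and no share was matched for base composition. PU.1 letters, GAGGAAGT, were in 8.37%, 6.62% and 7.50%, and the E-box CAGCTG in 17.0%, 11.9% and 14.4%. The cyclic AMP element TGACGTCA was in 0.468% of lost promoter windows against 1.68% of all. For the myeloid losses described above, the stretches with a central match are shown for the MNDA window in its intron at chr1:158833402-158833489, with C/EBP letters on the plus strand, the region at -30549 bp from IKZF1 at chr7:50273516-50273602, with RUNX letters on the minus strand, and the MPO window at chr17:58281956-58282042, with RUNX letters on the plus strand. Capitals mark the match on the plus strand of hg38.
MNDA: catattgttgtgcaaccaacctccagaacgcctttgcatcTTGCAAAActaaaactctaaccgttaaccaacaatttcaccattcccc
IKZF1: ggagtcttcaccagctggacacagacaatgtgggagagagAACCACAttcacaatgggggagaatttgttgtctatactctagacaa
MPO: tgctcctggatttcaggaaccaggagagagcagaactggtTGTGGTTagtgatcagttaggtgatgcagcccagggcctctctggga

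The intergenic region at -30549 bp from IKZF1, the nearest gene and one that encodes a lymphoid and myeloid regulator, had 1.64 and 1.52 CPM in USP18KO cells and 11.1 and 11.9 CPM in WT cells (log2 difference -2.86, SE 0.25, edgeR adjusted p = 5.9e-17).

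Some called regions lay next to each other in runs, while 44.4% of gained and 35.7% of lost regions stood alone. Of 6985 gained regions 585 lay in 95 runs of 5 or more neighbouring tested regions, and of 13291 lost regions 2106 in 309 such runs. The longest gained run, at RCSD1,MPZL1, held 13 regions over 66.7 kb of chromosome 1 with a median log2 difference of 1.75. It lies in a 10 Mb stretch with a median of 0.51, and 9 of the 13 remained called once this was centred. The run at FTH1, which encodes the iron storage subunit ferritin heavy chain, held 10 gained regions over 67.3 kb of chromosome 11 with a median log2 difference of 1.53, and its regions summed to 222 and 234 CPM against 83.7 and 77.3 CPM. The run at NFKBIL1,LTA,TNF held 9 over 34.5 kb of chromosome 6, also covering LTB, all genes of the TNF locus, with 764 and 808 CPM against 287 and 296 CPM (median 1.54). The run at LHX3 held 9 regions with a median of 2.69, in a stretch with a median of 0.60. With stretches centred, 9 regions at LHX3, 7 at FTH1 and 7 at the TNF locus remained called. Of lost regions, the run at DCPS,GSEC,ST3GAL4 held 23 over 131 kb of chromosome 11, with 123 and 136 CPM against 651 and 647 CPM (median -2.34), and the run at PRLR,SPEF2, around the prolactin receptor gene, held 23 over 177 kb of chromosome 5 (median -1.85). Both lie in stretches of 10 Mb that were lower as a whole, with medians of -0.73 and -0.78, and once these were centred 17 and 11 of the 23 regions remained called. The run at LOC339862,SATB1, beside a chromatin organizer of lymphocytes, held 19 regions over 326 kb with a median of -2.08, and the run at FTO-IT1,LINC02169 21 over 165 kb of chromosome 16 with a median of -1.67.

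Differences also ran along longer parts of chromosomes. In stretches of 10 Mb with at least 50 tested regions, 303 in all, the median log2 difference ranged from -0.94 to 0.76, and 18 stretches had a median under -0.5 and 5 over 0.5. The lowest was chromosome 5 from 40 to 50 Mb, where 108 of 289 regions were lower, 0 were higher and 90.7% lay below 0, and the neighbouring stretch from 30 to 40 Mb had a median of -0.78 with 238 of 697 lower. Chromosome 11 from 120 to 130 Mb (-0.73), chromosome 12 from 40 to 50 Mb (-0.77) and chromosome 17 from 10 to 20 Mb (-0.75) were similar. The highest was chromosome 1 from 170 to 180 Mb (0.76), where 106 of 316 regions were higher, followed among autosomes by chromosome 9 from 130 to 140 Mb (0.60, 192 of 779 higher). All 23 stretches beyond 0.5 had a median of the same sign in the IFN-treated cells, which come from the same populations. Input libraries were not analysed here, so a difference in DNA copy number and one in acetylation along a stretch cannot be told apart. These stretches held 2340, or 11.5%, of the called regions. With each stretch centred on its own median, a step chosen after the data were seen, 6595 regions were higher and 11431 lower, and 76.1% of the gained and 76.9% of the lost regions remained called. The stress response list then had 53 of its 117 windows higher and 0 lower, a count no smaller than without the centring. At RPL37, in the lowest stretch of chromosome 5, 28.6 and 35.0 CPM against 74.9 and 70.4 CPM gave a log2 difference of -1.19 that became -0.25 once centred. Zinc finger genes named ZNF, of which many but not all lie in clusters on chromosome 19, also changed with the centring. Of 771 promoter windows 91 (11.8%) were higher and 11 lower at first, and 37 and 14 once centred. ZNF558 kept its call, with 42.5 and 37.8 CPM against 8.76 and 8.68 CPM (2.20, and 1.86 once centred).

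**Figure D5:**
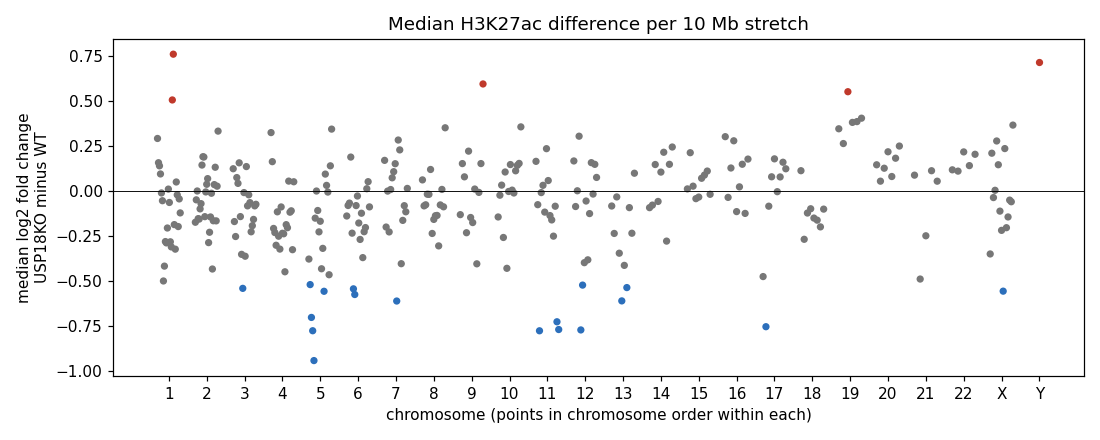
Median log2 difference in H3K27ac between untreated USP18KO and WT cells (y axis) for each 10 Mb stretch with at least 50 tested regions, in chromosome order (x axis), coloured red over 0.5 and blue under -0.5. The lowest point is chromosome 5 from 40 to 50 Mb at -0.94 and the highest chromosome 1 from 170 to 180 Mb at 0.76.

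The untreated differences were largely present with IFN as well, in libraries of the same cell populations that do not enter the untreated fold changes but share the fit's estimate of spread and its filter. Of the 6985 gained regions 4016 (57.5%) were also called higher with IFN, which is 28.9% of the 13897 regions called higher there, 6 were called lower, and 93.9% had the same sign. Of the 13291 lost regions 8704 (65.5%) were also called lower, which is 52.7% of the 16528 called lower with IFN, 218 were called higher, and 92.8% had the same sign. Sizes were moderate for most, with a median of 2.60-fold for gained and 2.78-fold for lost regions, while 975 gained and 2573 lost regions differed over 4-fold and 123 and 353 over 8-fold. The 2 libraries of each group did not overlap at 6969 of the gained and 13271 of the lost regions, but 63.5% of all tested regions were of that kind.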

How the data were processed

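H3K27ac ChIP-seq of THP-1 cells was analysed from 1 table of 8 libraries in 4 groups of 2. Per the file headers and the submitters' processing notes, the authors aligned reads to hg38 with Bowtie2 and deposited raw HOMER tags per 1000 bp window at merged ATAC-seq peaks. These are expected counts because a read pair counts by mate in steps of 0.5 (52.2% of the deposited values were whole), and they were rounded to whole numbers, with 0.5 going up. No value column was left unmapped (0). Inputs and ATAC-seq were not analysed here. DESeq2 is also named in the submitters' notes.

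The filter kept regions that reached 10 counts in 2 or more of the 8 libraries, which were scaled by TMM and fitted in edgeR 4.0.16 (R 4.3.3, limma 3.58.1) with 1 mean per group, and USP18KO was tested against WT, both untreated, by the quasi-likelihood test with Benjamini-Hochberg adjustment. Calls needed an adjusted p under 0.05 and over 2-fold. The common biological coefficient of variation was 0.0737, and replicates differed by more than counting noise (chi-square over degrees of freedom 1.65 in USP18KO and 1.34 in WT cells). In simulated data with 200 regions changed 3-fold among 123276, 133 were recovered, 88 of 93 where the mean reached 30 counts, with 4 false calls. Alternatives covered scaling, filter, threshold, window set, libraries, replicate block and DESeq2 1.42.0.

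The members and gene lists were chosen with earlier results of these data known. Named genes are the USP18 window, the 10 largest promoter rises and falls and the 8 largest distal ones among called regions with groups apart and at least 30 counts in both libraries of the higher group, 1 region per gene, and up to 4 promoter and 2 distal regions per list. Others were chosen after their values were seen, and 1 region that the rule chose is not reported here. Motifs were searched in hg38. The distances of 90.1% of 26939 promoter windows matched GENCODE 44 starts within 100 bp.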

Additional observations from a re-analysis of the deposited data

Results flagged for a closer look

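The difference between USP18KO and WT cells itself differed with IFN at 20 of the 127 named regions that were called. This used the interaction contrast of the edgeR fit with adjusted p under 0.05. The share over all tested regions is not given here, so the count cannot be read as particular to the named regions. At 13 of the 20 the difference was larger in size in untreated cells, counting those whose sign turned. Named regions were picked for large untreated differences, which favours such a majority, so no conclusion is drawn from it. At 2 promoters the sign turned. AIM2 was lower in untreated USP18KO cells (log2 difference -2.42) and higher with IFN (2.16), at 18.6 and 16.8 CPM in USP18KO and 3.91 and 4.05 CPM in WT cells, so that the untreated minus the IFN difference was -4.58 (SE 0.41, edgeR adjusted p = 1.5e-15). IFITM1 went from -1.73 to 1.33, a difference of -3.06 (SE 0.25, edgeR adjusted p = 1.6e-17). MPO, lower by 1.61 in untreated USP18KO cells, was lower by 3.62 with IFN, at 4.72 and 3.79 CPM against 50.7 and 54.4 CPM (2.01, SE 0.20).

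The remaining differences, untreated minus IFN, were as follows. Rises that were smaller without IFN were those of IFIH1 (-1.45), CCL2 (-1.42) and JUNB (-0.55). Rises that were larger without IFN were those of CRY1 (1.76), LHX3 (1.42), SIGLEC8 (1.36), the RELB intron (1.46), ABCG1 (1.17) and ZNF605 (0.68). Falls that were deeper without IFN were those of PCDHGB4 (-2.60, with 2 and 1 counts in untreated USP18KO cells, so imprecise), VCAM1 (-2.06), the region upstream of GPT2 (-1.54), TCF4 (-1.33) and RPL37 (-0.44). Falls that were deeper with IFN were those of the window at MIR4457 (1.51), COL21A1 (1.06) and an intron of COL19A1 (0.96).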

How the results depend on the processing

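Of 129 named regions, 114 kept their direction and their side of the thresholds under each of 17 settings that could be run, 15 lost the call under 1 or more, and 0 turned sign. Centring the 10 Mb stretches cost the call at 8 of them and scaling over proximal regions alone at 7. With an adjusted p under 0.05 and no fold threshold, 20810 regions were higher and 20776 lower, 10684 and 2794 at promoters, and 10126 distal regions were higher. With at least 30 counts, 4651 regions were higher, 3198 of them distal. With 1 window per chain of overlapping windows, 838 promoter windows were lower. With proximal regions scaled alone, 884 promoter windows were higher and 2309 lower. Leaving out each library in turn gave 6341 to 6838 higher and 11565 to 12384 lower regions. With the replicate number as a block there were 6946 higher and 13316 lower regions, and the deviations of the same number in both groups did not correlate (r = 0.0052), so the numbers are only names. DESeq2 gave 5484 higher and 9389 lower regions, and a test against 1.5-fold 6327 and 9891. The causes were not tested. Offsets per 10 Mb stretch, and the lists under proximal or distal scaling, were chosen after seeing the data. Regions with few tags in WT cells give wide errors, and 2 libraries per group rest on a spread shared across regions.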

Other observations

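Other lists held few called regions each, to be read against 7.28% of all promoter windows higher and 4.45% lower and 5.23% and 11.8% of distal regions within 100000 bp. Of 47 promoter windows of pyroptosis and inflammasome genes 3 were higher and 6 (12.8%) lower, with the DNA sensor gene AIM2 at 0.602 and 0.854 CPM in USP18KO cells and 4.69 and 3.22 CPM in WT cells (log2 difference -2.42, SE 0.36, edgeR adjusted p = 3.1e-08) and the inflammasome sensor gene NLRC4 at 15.8 and 19.5 CPM against 6.83 and 7.25 CPM (1.32, SE 0.17, edgeR adjusted p = 5.3e-10). Of 65 windows of integrin and adhesion genes 4 were higher and 8 (12.3%) lower, with VCAM1, an endothelial ligand of integrin α4, at 1.46 and 1.33 CPM against 6.62 and 5.91 CPM (-2.15) and the gene of that integrin subunit, ITGA4, at 23.7 and 29.0 CPM against 57.1 and 61.1 CPM (-1.17, short of the fold threshold once its 10 Mb stretch was centred). A region 61638 bp from the scavenger receptor gene CD36 fell by 3.32 on the log2 scale. Sterol and fatty acid genes had 4 of 61 promoter windows higher, among them the cholesterol exporter gene ABCG1 (1.78), and 26 of 138 distal regions (18.8%) lower, among them one at -12250 bp from SREBF1 in an intron of TOM1L2 (-2.30).

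Of 189 promoter windows of ion channel genes 11 were higher and 8 lower. KCNE1, a potassium channel subunit, had 17.2 and 16.3 CPM against 4.08 and 3.40 CPM (2.17, SE 0.19, edgeR adjusted p = 6.1e-17), and a region in GABRA4, a GABA receptor gene, 1.29 and 1.61 CPM against 14.9 and 14.7 CPM (-3.34). Protocadherin genes had 6 of 38 promoter windows (15.8%) higher and 3 (7.89%) lower, where tags in the clustered genes may be shared among copies. HOX clusters and cofactors had 1 of 33 higher and 2 lower at promoters and 9 of 45 distal regions (20.0%) higher and 5 lower. With every 10 Mb stretch centred on its own median, these distal regions turned to 5 higher and 7 lower. Collagen and laminin genes, a list by prefix that also takes in collectins, had 5 of 73 higher and 8 (10.96%) lower with COL21A1 at 4.05 and 3.61 CPM against 19.4 and 19.2 CPM (-2.32), and ribosomal protein genes, whose prefix also takes in RPS6KA kinases, 4 of 152 in each direction with a median of -0.00.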
